A study of Mus musculus with 6 samples.

Results

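The 38 genes described here carry out glycolysis or answer to low oxygen: glucose and lactate transporters, the enzymes from hexokinase to lactate dehydrogenase, the kinases that steer pyruvate, the subunits of the hypoxia-inducible factors (HIFs), the prolyl hydroxylases that sense oxygen for them, and 9 further hypoxia response genes. They were chosen by name, as the genes of the expression table whose mouse symbol equals a listed member, a rule that reads no measured value. The list itself was chosen with earlier results of these data known. All 38 listed members were found among the 14005 genes of the table. Levels are counts per 1e6 reads (CPM), and a minimum of 0.5 CPM in at least 3 libraries left 13991 genes for testing. All 38 members passed it, each with a CPM above the minimum in every library.

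Bulk RNA sequencing was done on FLK1+ cells, the mesodermal cells that carry the VEGF receptor FLK1 (gene Kdr), taken with magnetic beads from mouse embryoid bodies at day 3.5 of differentiation. There were 6 libraries, 3 from wild-type (WT) J1 embryonic stem cells and 3 from Scl-/- embryonic stem cells, which lack the blood transcription factor SCL (gene Tal1). The libraries of each genotype are numbered 1 to 3 and come from independent differentiations, so that each number holds 1 WT and 1 Scl-/- library. The question put to the data was how the genes differ between genotypes and, separately, between the replicate numbers. The strain label reads C57Bl/6 X Sv129 for both libraries of replicate 1 and for WT replicate 2, and it carries a different number after Sv in each of the other 3 libraries. It was read here as 1 mixed background for all 6, which the labels alone do not settle. Both groups share the day of harvest and the selection for FLK1, and neither received a treatment. Each genotype was 1 cell line, so a difference between genotypes cannot be told apart from a difference between the lines. The WT libraries held 39713877, 38623641 and 40769209 reads on the listed genes for replicates 1, 2 and 3, and the Scl-/- libraries held 47621120, 42108168 and 43662177. At these depths 3 reads correspond to between 0.0615 and 0.0784 CPM, a floor that covers counting error only.

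Glycolysis splits glucose into pyruvate in the cytosol and yields ATP without oxygen; glucose enters through SLC2A transporters, and pyruvate that lactate dehydrogenase turns into lactate leaves through the monocarboxylate transporters SLC16A1 and SLC16A3. When oxygen is scarce, the prolyl hydroxylases EGLN1 and EGLN3 no longer mark the HIF alpha subunits for destruction, and these pair with ARNT and switch on most of the genes listed here. Embryonic stem cells run glycolysis at a high rate even in oxygen.

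The genotype labels were checked first with Tal1. Its level was 303, 182 and 306 CPM in WT replicates 1, 2 and 3 and 9.35, 5.68 and 5.87 CPM in the Scl-/- replicates. All 3 Scl-/- libraries lay far below all 3 WT libraries, with a log2 fold change (Scl-/- minus WT, of CPM plus 0.5) of -5.14 and an adjusted p of 0.000671. Of 8 haemato-endothelial markers, 8 were lower in Scl-/- cells and 5 were called, meaning an adjusted p under 0.05; a fit with the replicate number as a block called 8. Their summed level was 1067, 677 and 1155 CPM in WT against 303, 166 and 291 CPM in Scl-/- libraries, with Lmo2 the most abundant. The lowest log2 fold change of this list was the -5.14 of Tal1, so its counts and sums include the gene that Scl-/- cells lack. Of 7 markers of FLK1+ mesoderm, 6 were higher in Scl-/- cells and 2 were called (Etv2 and Mixl1; 6 with the block), with sums of 1597, 2004 and 1778 CPM in WT and 2023, 2843 and 2885 CPM in Scl-/- libraries. Kdr, the most abundant of these and the gene the cells were selected on, stood at 868, 832 and 867 CPM in WT and at 724, 777 and 810.4 CPM in Scl-/- libraries. Both marker lists thus moved with genotype, and they also moved with the replicate number: by mean CPM, all 8 haemato-endothelial markers were lowest in replicate 2, and all 7 mesoderm markers were lowest in replicate 1. Their part in the differences given below was not tested. In bulk RNA, fewer cells of a type and less RNA per cell cannot be told apart.

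Of 5 primitive erythroid markers only Hbb-bh1 was listed in the table, at 1.33, 0.601 and 1.94 CPM in WT and at 0 in all 3 Scl-/- libraries. It passed the minimum level only through the WT libraries, which fixed its direction. No conclusion is therefore drawn from its call as lower, made with and without the block. Pluripotency markers (7 of 7 listed, Pou5f1 the most abundant) summed to 148, 211 and 132 CPM in WT and 126, 292 and 242 CPM in Scl-/- libraries; 3 were higher and 4 lower, and limma called 0 of them without the block, with 2 at an unadjusted p under 0.05, and 4 with it (3 higher, 1 lower). The F test between replicate numbers called 3 of the 7 (42.9%, against 32.5% of all genes). Of the cardiac markers 3 of 6 were listed, with sums of 424, 364 and 497 CPM in WT and 459, 245 and 318 CPM in Scl-/- libraries, most of it Hand1. Endoderm markers (2 of 7 listed, Sox17 and Cer1) summed to 14.8, 8.34 and 22.4 CPM against 3.32, 3.12 and 8.44 CPM, most of it Sox17, which endothelial cells express too, and neural markers (4 of 5 listed, mostly Nes) to 85.6, 126 and 80.2 CPM against 134, 175 and 145 CPM. In these 3 lists limma called 0 genes without the block, with 1 in each at an unadjusted p under 0.05. With the block it called Myl7 of the cardiac markers as higher (on chromosome 11, as is Hand1; log2 fold change 1.83, adjusted p 0.000146), Sox17 of the endoderm markers as lower, and of the neural markers Nes and Otx2 as higher and Tubb3 as lower. Hand1 and Nkx2-5 had log2 fold changes of -0.45 and -0.21, and Cer1 of 0.85, opposite in sign to the called gene of their list. The part of these cells in the differences below was not tested.

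Between genotypes, 3 of the 38 members were called, which is 7.89% of them against 2.38% of all 13991 genes tested. Slc16a3 was higher in Scl-/- cells, and Slc2a3 and Epas1 were lower. The fit with the block, which compares the libraries of the same number, called 11 members (28.9%) against 24.2% of all genes, so that the members' share lay near that of the genes at large. These 11 held the same 3 genes and added Slc16a1, Pfkl, Aldoc and P4ha2 as higher and Slc2a1, Hk1, Gpi1 and Egln1 as lower in Scl-/- cells. The CPM values of the genotypes did not overlap for 9 members, 3 higher and 6 lower in Scl-/- cells, where 21.6% of all genes had no overlap. The median log2 fold change was 0.03 over the members and 0.01 over all genes, with 20 members above 0 and 18 below. The median absolute log2 fold change was 0.19 over the members and 0.16 over all genes. The count without the block depended on the library left out: it was 0 without WT replicate 1 (limma, 5 members at an unadjusted p under 0.05), 1 without WT replicate 3 and 2 or 3 without each other library. Genes at large moved too. The count over all genes was 333 with every library, 34 without WT replicate 1, 88 without WT replicate 3 and 129 to 384 without each other library. With the block, a number with 1 library left adds nothing to the genotype difference, so leaving out either library of a number leaves the same 2 pairs, and the 6 such fits amount to 3. The count was 11 without WT replicate 1 or Scl-/- replicate 1, of which 9 were shared, Gpi1 and Egln1 being lost and Egln3 and Ddit4 gained. It was 6 without WT replicate 2, WT replicate 3, Scl-/- replicate 2 or Scl-/- replicate 3: Slc2a3, Slc16a1, Slc16a3, Hk1, Epas1 and P4ha2, which were called whichever pair was left out. Over all genes the block called 3385 with every library, and 3651 and 3655 without WT or Scl-/- replicate 1. Without WT replicate 2, WT replicate 3, Scl-/- replicate 2 or Scl-/- replicate 3 it called 1207, 1606, 1239 and 1625. With the median deviation of 20 neighbouring genes removed, 10 tested genes on each side, an alternative chosen after the data had been seen, the fit with the block called 10 members: Pgk1, Ldha and Pdk3 were gained and Pfkl, Aldoc, Egln1 and P4ha2 lost.

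**Figure D1:**
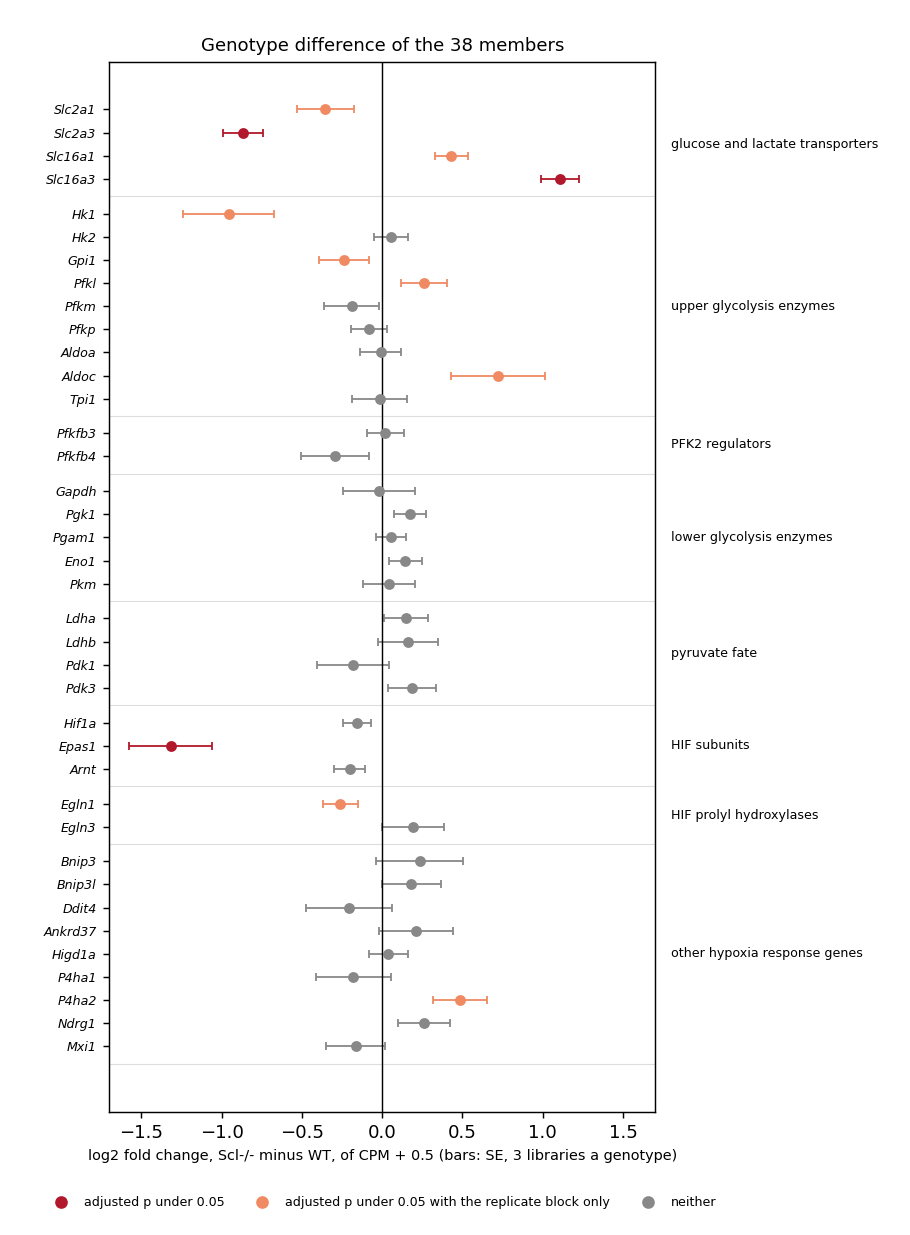
Log2 fold change of CPM plus 0.5 (x axis, Scl-/- minus WT) of each of the 38 members (y axis), grouped by role, with the standard error of the fit over 3 libraries a genotype and coloured by whether the gene was called. Slc16a3 at 1.11 and Epas1 at -1.32 are the ends of the range, and most enzymes lie close to 0.

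The 4 transporters hold both ends of the pathway, glucose entry and lactate exit, and all 4 were called with the block, 2 in each direction, where 24.2% of all genes were called. The Slc2a1 call was kept only where the pair left out was replicate 1, and the other 3 calls whichever pair was left out. Among the members, Slc16a3 and Slc16a1 are given with their promoters because both lactate carriers were higher in Scl-/- cells. The capitals mark the cores ACGTG and GCGTG of hypoxia response elements, found on either strand (CACGT and CACGC are the same letters read on the other strand), in the 250 bases before a RefSeq transcript start.
Slc16a3 promoter (GRCm38.p6, chr11:120948817-120949066, plus strand): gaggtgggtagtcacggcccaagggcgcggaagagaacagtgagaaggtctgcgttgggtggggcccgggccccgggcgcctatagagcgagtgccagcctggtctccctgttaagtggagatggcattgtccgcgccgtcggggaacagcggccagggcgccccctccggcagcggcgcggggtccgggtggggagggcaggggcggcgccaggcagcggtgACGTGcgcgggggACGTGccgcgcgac
Slc16a1 promoter (GRCm38.p6, chr3:104638414-104638663, plus strand): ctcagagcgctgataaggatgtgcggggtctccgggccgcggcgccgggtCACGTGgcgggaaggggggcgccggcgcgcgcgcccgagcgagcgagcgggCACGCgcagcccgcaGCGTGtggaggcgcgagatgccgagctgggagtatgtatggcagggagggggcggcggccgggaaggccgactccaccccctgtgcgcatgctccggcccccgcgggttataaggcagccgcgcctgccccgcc
The Slc16a3 window held 2 copies of ACGTG and none of GCGTG. The Slc16a1 window held CACGTG, which counts as ACGTG on both strands, and 2 copies of GCGTG.

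Slc16a3 (ENSMUSG00000025161, mm9 chr11:120809794-120822182) encodes MCT4, the low-affinity lactate exporter of highly glycolytic cells. It was at 118, 108 and 117 CPM in WT replicates 1, 2 and 3 and at 215, 249 and 281 CPM in the Scl-/- replicates. Every Scl-/- library was above every WT library by a wide margin, while the WT libraries differed little among themselves. Mean levels were 114 ± 5.32 CPM in WT and 248 ± 33.2 CPM in Scl-/- cells (SD, n = 3 each), a log2 fold change of 1.11 (SE 0.12) with an adjusted p of 0.00687, or 0.000146 with the block. Without WT replicate 1 the adjusted p was 0.0579, and without each of the other libraries it lay between 0.009 and 0.0363. Over the other alternatives it ranged from 0.000146 to 0.0129.

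Slc16a1 (ENSMUSG00000032902, mm9 chr3:104442591-104462385) encodes MCT1, which carries lactate and pyruvate in either direction. Its levels were 313, 355 and 299 CPM in WT and 407, 466 and 429 CPM in Scl-/- libraries. The genotypes did not overlap, and in each genotype replicate 2 was the highest. The log2 fold change of 0.43 (SE 0.10) missed the threshold without the block, at an adjusted p of 0.0884, and passed with it, at 0.00221. Per kb of exon, the ratio of Slc16a3 to Slc16a1 within a library was 0.314, 0.254 and 0.326 in WT and 0.439, 0.445 and 0.546 in Scl-/- cells. Slc16a1 therefore had more reads per kb than Slc16a3 in all 6 libraries, and the ratio was higher in every Scl-/- library than in every WT library.

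Slc2a3 (ENSMUSG00000003153, mm9 chr6:122677827-122751658) encodes GLUT3, a glucose importer of high affinity. WT libraries held 283, 258 and 277 CPM and Scl-/- libraries 169, 125 and 157 CPM. The 3 Scl-/- values lay below all WT values, and replicate 2 was the lowest of each genotype. The log2 fold change was -0.87 (SE 0.13; means 273 ± 13.4 and 150.3 ± 22.5 CPM, SD, n = 3 each), with an adjusted p of 0.0178 and, with the block, 0.000193. Leaving out WT replicate 1 or WT replicate 3 raised the adjusted p to 0.141 or 0.0713, and without each other library it stayed under 0.05, at most at 0.04998. Other alternatives without a library left out gave 0.000193 to 0.0328.

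Slc2a1 (ENSMUSG00000028645) encodes GLUT1, the widespread basal glucose importer. It was measured at 251, 188 and 287 CPM in WT and at 217, 161 and 185 CPM in Scl-/- libraries. The groups overlapped, since WT replicate 2 lay below 1 Scl-/- library, but within each replicate number the Scl-/- library was the lower. Its log2 fold change of -0.36 (95% interval -0.77 to 0.06) had an adjusted p of 0.362 without the block and 0.0235 with it, and the second call was lost without WT replicate 2, WT replicate 3, Scl-/- replicate 2 or Scl-/- replicate 3, where the adjusted p reached 0.111. Per kb, Slc2a3 was at 0.444, 0.538 and 0.380 of Slc2a1 in WT libraries and at 0.306, 0.306 and 0.334 in Scl-/- libraries. Each WT ratio was above each Scl-/- ratio.

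Slc16a3, Aldoc and P4ha2 lie on chromosome 11, where genes at large differed between the genotypes. The median log2 fold change of the 1211 genes tested on chromosome 11 was 0.31, that of the 789 genes on chromosome 1, which holds 0 members, was -0.29, and each remaining chromosome had a median between -0.02 and 0.03, except Y at 1.75 over 4 genes. The 10 tested genes on each side of Slc16a3, over 0.902 Mb, had log2 fold changes above 0 (20 of 20), with a median of 0.31 and a highest value of 0.79, so that 0 of them reached the value of Slc16a3. Beyond them on 1 side, but nearer in distance than some on the other, Notum and Gm11768 had values of -0.25 and -0.26. Farther out on that side some genes exceeded Slc16a3 (1.106) and others lay below it. Ccdc40 was at 1.107 (-1.72 Mb from Slc16a3) and Tmc8 at 2.06 (-3.17 Mb). With the median deviation of the 20 genes taken out of each library, the log2 fold change of Slc16a3 was 0.78 with an adjusted p of 0.0112, or 0.000227 with the block. Of the 10 genes on each side of P4ha2, 19 of 20 had values above 0 (median 0.41), and 8 exceeded P4ha2. Taking their median out left P4ha2 a log2 fold change of 0.11 and an adjusted p with the block of 0.374. For Aldoc, 20 of 20 neighbours counted in the same way were higher, with a median of 0.32, and 1 exceeded it; the adjusted value was 0.38, at an adjusted p of 0.101 with the block. What sets chromosomes 1, 11 and Y apart in these lines was not tested.

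**Figure D2:**
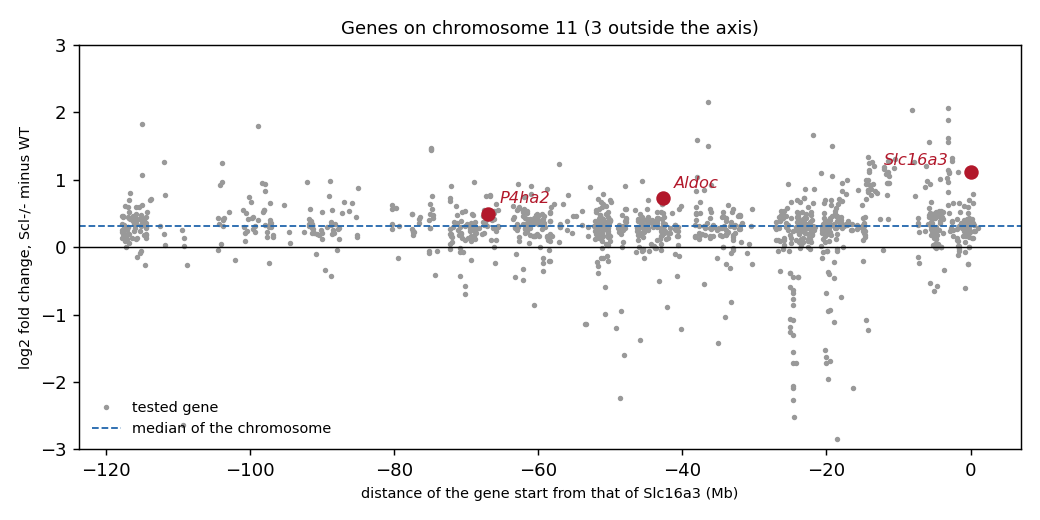
Log2 fold change (y axis, Scl-/- minus WT) of the 1211 tested genes of chromosome 11 against the distance of each gene's start from that of Slc16a3 in Mb (x axis); 3 genes lie outside the axis. The 3 members are marked and the dashed line is the chromosome's median of 0.31, near which P4ha2 lies and above which Slc16a3 stands.

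The upper glycolysis enzymes take glucose to triose phosphates. Without the block limma called 0 of the 14 glycolytic enzymes between genotypes, with 2 at an unadjusted p under 0.05 (Hk1 and Aldoc); with the block it called Pfkl and Aldoc as higher and Hk1 and Gpi1 as lower in Scl-/- cells, 28.6% of the 14 and near the 24.2% of all genes. The other 10 enzymes had log2 fold changes from -0.19 to 0.17, with lower ends of their 95% intervals from -0.59 to -0.06 and upper ends from 0.18 to 0.50. These intervals, from the fit without the block, bound what the libraries allow and do not show that the levels were equal. With the block, those of Pgk1 (0.01 to 0.33), Eno1 (0.002 to 0.29) and Pfkm (-0.36 to -0.02) excluded 0, though none was called. The block intervals of the remaining enzymes among the 10 held 0. Of these 10, Pgk1 was called with the block once the median of its 20 neighbouring genes was removed (adjusted p 0.027).

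Hk1 (ENSMUSG00000037012, mm9 chr10:61731603-61842656), a hexokinase that traps glucose by phosphorylation, had the largest genotype difference of the enzymes. It was at 36.2, 24.4 and 49.4 CPM in WT and at 16.9, 14.3 and 23.9 CPM in Scl-/- libraries. All 3 Scl-/- libraries were below all 3 WT libraries, although Scl-/- replicate 3 came close to WT replicate 2, and replicate 3 was the highest of each genotype. Scl-/- minus WT was -0.96 in log2 (SE 0.28), at an adjusted p of 0.14 without the block and 0.000502 with it. Hk2, the other hexokinase among the members, had a log2 fold change of 0.05 and far more reads: per kb, Hk1 was at 0.0842, 0.0674 and 0.128 of Hk2 in WT and at 0.0386, 0.0350 and 0.0634 in Scl-/- libraries. Its share of the pair was thus lower in every Scl-/- library than in every WT library.

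Gpi1 (ENSMUSG00000036427) interconverts glucose 6-phosphate and fructose 6-phosphate, and was at 339, 316 and 427 CPM in WT and 272, 284 and 361 CPM in Scl-/- libraries. The groups overlapped, with the Scl-/- library the lower of the 2 in each replicate number. Its difference of -0.24 in log2 (95% interval -0.60 to 0.13) had an adjusted p of 0.512 without the block and 0.0254 with it, and no library could be left out without losing that call (0.0623 to 0.124). Pfkl (ENSMUSG00000020277), the liver-type phosphofructokinase, was at 182, 148 and 213 CPM in WT and 209.8, 200.4 and 235 CPM in Scl-/- libraries. Here the Scl-/- library was the higher in each replicate number while WT replicate 3 lay within the Scl-/- range. The log2 fold change was 0.26 (95% interval -0.08 to 0.60), with an adjusted p of 0.42 and, with the block, 0.0322; the call was lost when any library of replicate 2 or 3 was left out, at up to 0.225.

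Aldoc (ENSMUSG00000017390), the aldolase of brain, was low throughout, at 4.77, 3.48 and 6.02 CPM in WT and 5.80, 7.40 and 11.8 CPM in Scl-/- libraries. WT replicate 3 exceeded Scl-/- replicate 1, so the groups overlapped. Its log2 fold change of 0.72 (SE 0.29) gave an adjusted p of 0.255, or 0.0176 with the block, which rose to as much as 0.147 when a library of replicate 2 or 3 was left out. Aldoa, the aldolase with most of the reads, was at 592, 593 and 737 CPM in WT and 578, 618 and 711 CPM in Scl-/- libraries. Its replicate 3 was the highest in both genotypes, and the genotypes overlapped (log2 fold change -0.01, 95% interval -0.31 to 0.29). The muscle-type phosphofructokinase Pfkm was at 60.7, 63.4 and 77.5 CPM in WT and 47.6, 57.9 and 72.5 CPM in Scl-/- libraries, with each Scl-/- library the lower of its number and the groups overlapping (log2 fold change -0.19, 95% interval -0.59 to 0.21). Tpi1, triose phosphate isomerase, was at 222, 189.9 and 283 CPM in WT and 243, 191 and 249 CPM in Scl-/- libraries, lowest in replicate 2 of both genotypes and without a common direction between them (log2 fold change -0.01, 95% interval -0.41 to 0.38).

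Lower glycolysis runs from glyceraldehyde 3-phosphate to pyruvate and holds Pkm, the most abundant member. Per kb of exon, the 6 highest mean levels of all 38 members were those of Pkm (651 CPM per kb), Ldha (296), Gapdh (275), Aldoa (232), Tpi1 (104) and Pgam1 (96.9), and the lowest was that of Epas1 (1.13). Duplicate read pairs and reads of low mapping quality were removed before counting, so for abundant genes and for those with processed pseudogenes, such as Gapdh, the share of reads kept is unknown. The 5 lower enzymes summed to 2608, 2526 and 3385 CPM in WT replicates 1, 2 and 3 and to 2559, 2861 and 3387 CPM in the Scl-/- replicates. Replicate 3 was the highest of each genotype and the genotypes overlapped.

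Pkm, pyruvate kinase, was at 1387, 1396 and 1815 CPM in WT and at 1330.3, 1568 and 1837 CPM in Scl-/- libraries. Replicate 3 stood above the rest in both genotypes, which otherwise covered the same range (log2 fold change 0.04, 95% interval -0.34 to 0.42); values per gene do not separate its M1 and M2 isoforms. Gapdh was at 561, 502 and 815 CPM in WT and 504, 555 and 784 CPM in Scl-/- libraries. Again replicate 3 was the highest of each genotype, and the genotypes overlapped (log2 fold change -0.02, 95% interval -0.55 to 0.50). The Gapdh promoter is shown because the gene stood out between replicate numbers, as described below; its capitals mark 2 copies of GCGTG.
Gapdh promoter (GRCm38.p6, chr6:125165774-125166023, minus strand): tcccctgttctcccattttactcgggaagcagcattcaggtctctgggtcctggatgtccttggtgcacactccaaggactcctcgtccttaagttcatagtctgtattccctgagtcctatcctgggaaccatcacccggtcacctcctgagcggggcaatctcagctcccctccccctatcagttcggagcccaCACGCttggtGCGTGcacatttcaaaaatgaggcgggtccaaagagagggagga
Pgam1, phosphoglycerate mutase, varied least of these, at 175, 160.4 and 188 CPM in WT and 175, 184 and 182 CPM in Scl-/- libraries. Its groups overlapped, and neither genotype nor number stood apart (log2 fold change 0.05, 95% interval -0.16 to 0.27).

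Pyruvate meets lactate dehydrogenase, which makes lactate, or pyruvate dehydrogenase, which the PDK kinases switch off. Ldha was at 749, 796 and 973 CPM in WT and 819, 922 and 1044 CPM in Scl-/- libraries, and Ldhb at 48.1, 56.2 and 65.3 CPM and 49.3, 64.3 and 77.8 CPM. For both genes the Scl-/- library was the higher in each number and the groups overlapped, with log2 fold changes of 0.15 (95% interval -0.18 to 0.47) and 0.16 (95% interval -0.28 to 0.60). Pdk1 was at 36.3, 24.9 and 28.5 CPM in WT and 27.8, 19.2 and 32.8 CPM in Scl-/- libraries. Its groups overlapped, and replicate 2 was the lowest in each genotype (log2 fold change -0.18, 95% interval -0.70 to 0.34). In this group of 4 genes, with Pdk3, limma called 0 between genotypes with or without the block, with 0 at an unadjusted p under 0.05 without the block and 1 with it. With the block and the median of the 20 neighbouring genes removed, Ldha (0.25, adjusted p 0.0423) and Pdk3 (0.30, 0.045) were called.

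**Figure D3:**
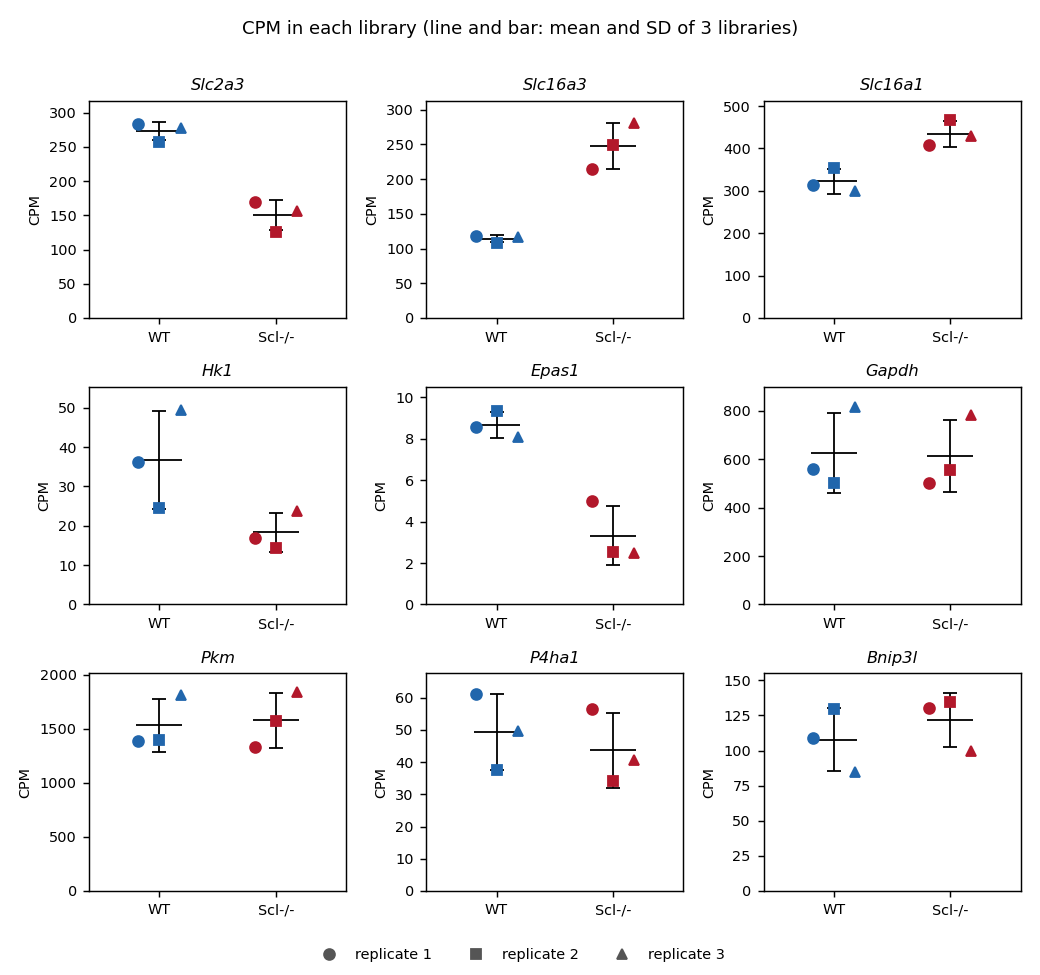
CPM (y axis, from 0) of 9 members in each library, by genotype (x axis), with the marker shape giving the replicate number and the line and bar the mean and SD of 3 libraries. Slc2a3, Slc16a3, Slc16a1, Hk1 and Epas1 separate the genotypes; Gapdh and Pkm are highest in replicate 3 of both, P4ha1 is lowest in replicate 2 and Bnip3l lowest in replicate 3.

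The HIF subunits were all lower in Scl-/- cells, with 3 of 3 not overlapping between genotypes, where 21.6% of all genes did not overlap. Of these 3 only Epas1 was called, with or without the block. Epas1 (ENSMUSG00000024140, mm9 chr17:87153247-87232750), which encodes the endothelial HIF2 alpha subunit, was at 8.55, 9.36 and 8.09 CPM in WT and at 4.98, 2.51 and 2.49 CPM in Scl-/- libraries. All Scl-/- libraries were below all WT libraries, and Scl-/- replicate 1 stood above the other Scl-/- libraries. The log2 fold change was -1.32 (SE 0.26; means 8.67 ± 0.642 and 3.33 ± 1.43 CPM, SD, n = 3 each), the largest among the members, with an adjusted p of 0.0488 and, with the block, 0.00299. This call lay at the threshold: leaving out WT replicate 1, WT replicate 2, WT replicate 3, Scl-/- replicate 2 or Scl-/- replicate 3 gave adjusted p values of 0.241, 0.0998, 0.124, 0.164 and 0.131, and only the fit without Scl-/- replicate 1 kept it, at 0.0142. A pseudocount of 0.1 gave 0.0516, a minimum mean of 2 CPM gave 0.051, and removal of the median of the 20 neighbouring genes gave 0.0645, while the other alternatives ranged from 0.00299 to 0.0497. With the block, Epas1 was called whichever pair was left out, at most at 0.0375.

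Hif1a, the subunit that drives most glycolytic genes in low oxygen, was at 229, 216 and 221 CPM in WT and at 194, 213 and 192 CPM in Scl-/- libraries. The Scl-/- values lay below the WT values, by a small margin in replicate 2. Its log2 fold change of -0.16 (95% interval -0.36 to 0.05) missed the threshold without the block (adjusted p 0.426) and with it (0.126), and that of Arnt, the shared partner, was -0.20 with adjusted p values of 0.329 and 0.059. Per kb, Epas1 was at 0.0414, 0.0480 and 0.0406 of Hif1a in WT libraries and at 0.0285, 0.0131 and 0.0144 in Scl-/- libraries. Hif1a therefore had far more reads per kb than Epas1 in all 6 libraries. Epas1 is also expressed by endothelial cells, and the haemato-endothelial markers were lower in the same 3 libraries, as given above; the part of cell composition in the Epas1 difference was not tested.

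Among the prolyl hydroxylases, Egln1 (ENSMUSG00000031987), the main oxygen sensor, was called only with the block; its promoter is shown because it is itself a HIF target, with the motif cores in capitals as before, 1 of each.
Egln1 promoter (GRCm38.p6, chr8:124949255-124949504, minus strand): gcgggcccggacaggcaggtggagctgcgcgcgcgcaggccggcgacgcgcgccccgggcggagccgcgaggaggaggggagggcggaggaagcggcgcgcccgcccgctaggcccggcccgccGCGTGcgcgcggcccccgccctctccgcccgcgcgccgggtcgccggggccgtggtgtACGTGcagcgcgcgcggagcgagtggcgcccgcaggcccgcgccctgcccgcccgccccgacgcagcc
Egln1 was at 62.8, 53.2 and 61.8 CPM in WT and 51.2, 46.1 and 50.5 CPM in Scl-/- libraries. The groups did not overlap, and replicate 2 was the lowest of each genotype. The log2 fold change was -0.26 (95% interval -0.51 to -0.01), at an adjusted p of 0.267 without the block and 0.0263 with it, and 0 of the 6 fits with a library left out kept the call (0.0531 to 0.117 with the block). Egln3 had a log2 fold change of 0.19 and was called in neither fit with all 6 libraries. Without Scl-/- replicate 1 its log2 fold change was 0.42 and without Scl-/- replicate 2 it was 0.07, and with the block it was called without WT replicate 1 or Scl-/- replicate 1, at as low as 0.00259.

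Of the 9 other hypoxia response genes, 1 was called with the block, P4ha2 (11.1%, against 24.2% of all genes). P4ha2 (ENSMUSG00000018906) and P4ha1 encode alpha subunits of the collagen prolyl hydroxylase. The promoter of P4ha1, the member with the smallest p between replicate numbers, holds 1 copy of ACGTG and 2 of GCGTG, in capitals.
P4ha1 promoter (GRCm38.p6, chr10:59323046-59323295, plus strand): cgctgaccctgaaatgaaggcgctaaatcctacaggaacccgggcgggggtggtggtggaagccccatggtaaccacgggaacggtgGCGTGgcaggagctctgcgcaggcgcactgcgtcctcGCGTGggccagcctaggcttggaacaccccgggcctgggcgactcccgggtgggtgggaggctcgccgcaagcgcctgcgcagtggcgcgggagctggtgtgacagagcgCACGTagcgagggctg
P4ha2 was at 23.8, 20.4 and 26.4 CPM in WT and 33.9, 27.1 and 39.2 CPM in Scl-/- libraries. The genotypes did not overlap, though Scl-/- replicate 2 was close to WT replicate 3. Its log2 fold change of 0.49 (SE 0.17) had an adjusted p of 0.194 without the block and 0.00496 with it, but fell within the range of its neighbours on chromosome 11, as described above. The 15 members not given by library (Hk2, Pfkp, Pfkfb3, Pfkfb4, Pgk1, Eno1, Pdk3, Arnt, Egln3, Bnip3, Ddit4, Ankrd37, Higd1a, Ndrg1 and Mxi1) had mean levels from 2.95 to 358 CPM and log2 fold changes from -0.29 to 0.26. Their adjusted p lay between 0.329 and 0.972 without the block and between 0.059 and 0.904 with it.

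Between replicate numbers, with genotype as a covariate, limma's F test called 17 of the 38 members (44.7%) against 32.5% of all genes tested. They were Slc2a1, Hk1, Gpi1, Pfkl, Pfkm, Aldoa, Tpi1, Pfkfb4, Gapdh, Pkm, Ldha, Ldhb, Pdk1, Bnip3, Bnip3l, P4ha1 and P4ha2. Against replicate 1, replicate 2 had 1 member called, P4ha1, which was lower, where 6.08% of all genes were called. Replicate 3 had 12 members called against replicate 1, 8 higher and 4 lower, with 19.7% of all genes called, and replicate 2 had 17 called against replicate 3, 3 higher and 14 lower, with 30.2% of all genes. The SD over the replicate numbers of a gene's mean log2 level had a median of 0.22 over the members and 0.17 over all genes tested. Replicate numbers carry no order, and the numbers differed in many genes besides these members.

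The F test count depended on which library was left out; a number with 1 library left is then assumed to vary like the others. It was 2 without WT replicate 2, 3 without WT replicate 3, 7 without Scl-/- replicate 2, 5 without Scl-/- replicate 3, 25 without WT replicate 1 and 18 without Scl-/- replicate 1. In the same order, these fits called 4.52%, 6.76%, 8.79%, 11.5%, 46.6% and 33.8% of all genes, so genes at large moved too. Without a term for genotype limma called 0 members, with 10 at an unadjusted p under 0.05, and without a trend of variance on level it called 7. P4ha1 was called in 5 of 6 fits with a library left out (0.0584 without WT replicate 2), and Gapdh, Hk1, Slc2a1 and Pdk1 in 4 of 6. Gapdh was lost without WT replicate 3 or Scl-/- replicate 3, at up to 0.0735, Hk1 without WT replicate 2 or WT replicate 3, at up to 0.0621, and Slc2a1 and Pdk1 without WT replicate 2 or Scl-/- replicate 2, at up to 0.282 and 0.379. The remaining 12 were called in 2 or 3 of 6 fits and lost in each case without WT replicate 2 and WT replicate 3.

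Of the 14 glycolytic enzymes, 12 had their highest mean CPM in replicate 3, against 37.8% of all genes tested, 9 had their lowest in replicate 2, against 32.7%, and the F test called 8 (57.1%), against 32.5%. That excess of calls depended on the settings: without the variance trend the F test called 2 of the 14, Hk1 and Gapdh (14.3%, against 15.7% of all genes), and without WT replicate 3 limma called 0, with 5 at an unadjusted p under 0.05, where 6.76% of all genes were called. It called 1 without WT replicate 2 (7.14%, against 4.52% of all genes) and 4 without Scl-/- replicate 2 (28.6%, against 8.79%). Without Scl-/- replicate 3 it called 2 (14.3%, against 11.5%), and with chromosome medians removed 10 (71.4%, against 34.0%). Without WT replicate 1 or Scl-/- replicate 1 it called 9 (64.3%, against 46.6% and 33.8%). With the median of 20 neighbouring genes removed it called 6 of the 14 (42.9%, against 28.05% of all genes). Gpi1, Pfkl, Aldoa and Tpi1 were lost, and Pfkp and Pgk1 gained. Within each genotype, 11 of the 14 were highest in replicate 3 of both, against 3642 of all 13991 genes, and 5 (Hk1, Pfkl, Pfkp, Tpi1 and Eno1) were lowest in replicate 2 of both, against 21.3%. In WT cells 11 of the 14 were lowest in replicate 2, where 4956 of all 13991 genes were, and in Scl-/- cells 5, where 4162 were, so that the Scl-/- count lay near that of genes at large. All 5 lower enzymes had their highest mean in replicate 3, whereas their means in replicates 1 and 2 were close for all but Pkm. With the libraries rescaled by median ratios, 12 were again highest in replicate 3, and 10 lowest in replicate 2. Gapdh, whose values are given above, was 0.59 higher in log2 level in replicate 3 than in replicate 1 (adjusted p 0.00834) and 0.60 higher than in replicate 2 (replicate 2 minus replicate 3 -0.60, adjusted p 0.00401). Its replicate means were 533, 528 and 799.5 CPM, whereas its genotype means were 626 and 614 CPM. P4ha1 and Gapdh had the smallest p of the members in the F test.

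Other enzymes called in the F test differed in size. Hk1 was lower in replicate 2 than in replicate 3 by a log2 difference of -0.86 (adjusted p 0.00319), close to its genotype difference of -0.96. Tpi1 differed by -0.48 (0.00758) and Gpi1 by -0.39 (0.00839) in the same comparison. Replicate 3 was above replicate 1 for Pfkm (0.48, adjusted p 0.0147), Pkm (0.43, 0.0174), Aldoa (0.31, 0.026), Ldha (0.36, 0.0177) and Ldhb (0.55, 0.0096). For these 7 genes besides Hk1 the replicate difference was larger in size than the genotype difference, which lay between -0.24 and 0.16. The genes were picked by their F test calls, and each is given with the largest of its 3 contrasts. That choice favours the replicate difference, so no conclusion is drawn from the comparison. Slc2a1, at the entry of the pathway, was lower in replicate 2 than in replicate 3 by -0.40 (0.0286), and Pdk1 by -0.47 (0.0476). The F test call of Pdk1 (adjusted p 0.04875), besides the losses given above, was also lost at a minimum mean of 2 CPM, with chromosome medians removed and without the variance trend.

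These contrasts were also sensitive to single libraries. Of replicate 2 against 3, the calls of Gapdh and Hk1 were lost without WT replicate 2 or WT replicate 3 (up to 0.077 and 0.0799), and those of Tpi1, Gpi1, Slc2a1 and Pdk1 in 3 of 6 fits, WT replicate 2 being 1 of the libraries left out for each (up to 0.11, 0.126, 0.270 and 0.342). Of replicate 3 against 1, the calls of Gapdh, Ldha and Ldhb were lost without WT replicate 3 or Scl-/- replicate 3 (up to 0.076, 0.151 and 0.0828), and those of Pfkm, Pkm and Aldoa also without Scl-/- replicate 1 (up to 0.112, 0.1495 and 0.184).

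**Figure D4:**
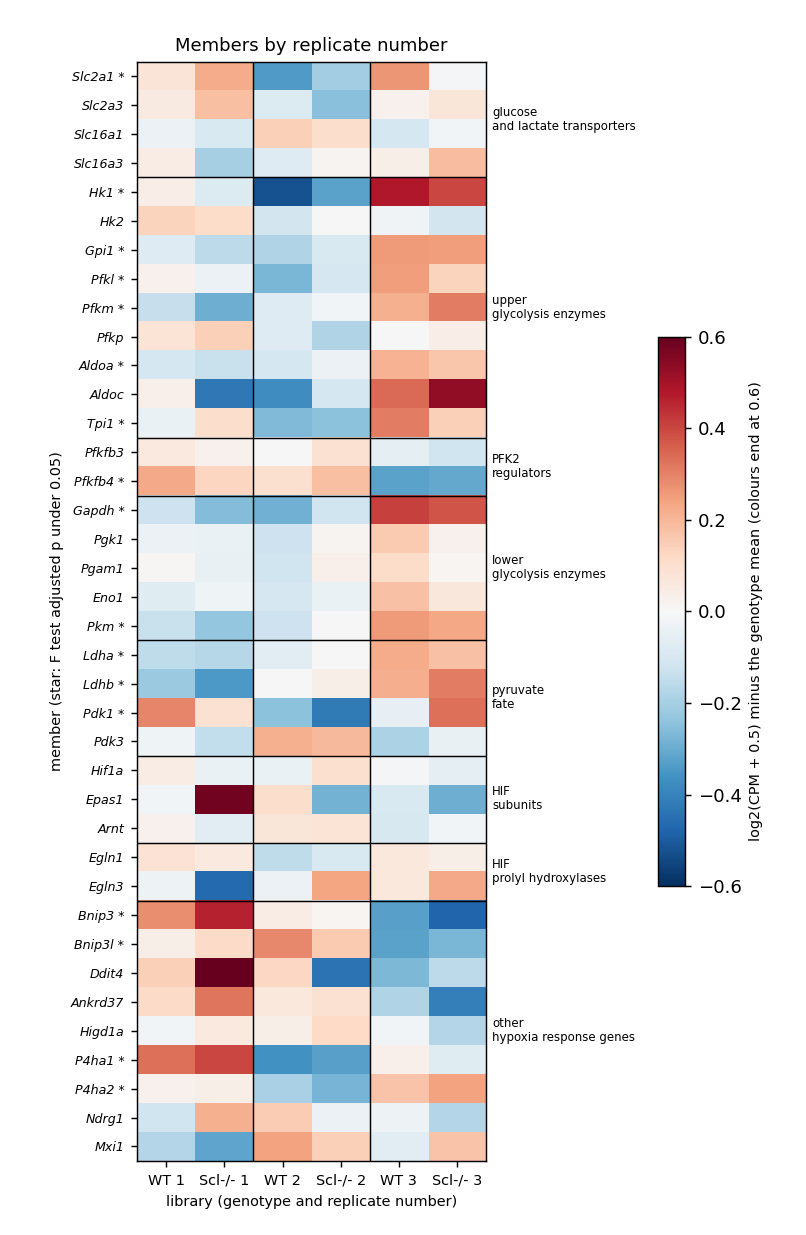
Deviation of log2 of CPM plus 0.5 from the genotype mean (colour, ends at 0.6) of each member (y axis, by role; a star marks an F test call) in each library (x axis, grouped by replicate number). Glycolytic enzymes are mostly above their mean in both libraries of replicate 3, where several other hypoxia response genes are below theirs.

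The 9 other hypoxia response genes were more mixed. By mean CPM, 5 were highest in replicate 1, 3 in replicate 2 and 1 in replicate 3, and 6 were lowest in replicate 3 (66.7%, against 37.3% of all genes), counts that median-ratio scaling left as they were; 3 were lowest in replicate 3 of both genotypes (33.3%, near the 27.3% of all genes). The F test called Bnip3, Bnip3l, P4ha1 and P4ha2 (44.4%, against 32.5%). P4ha2 was highest in replicate 3 and lowest in replicate 2, with means of 28.9, 23.8 and 32.8 CPM over the genotypes. P4ha1 was at 61.1, 37.6 and 49.5 CPM in WT replicates 1, 2 and 3 and at 56.6, 34.0 and 40.6 CPM in the Scl-/- replicates. The same order of numbers, with replicate 2 the lowest, held in both genotypes. The log2 difference between replicates 2 and 1 was -0.71 (adjusted p 0.00859), and the F test had an adjusted p of 0.00566. Bnip3l, a mitophagy receptor induced by HIF, was at 109, 129.8 and 85.0 CPM in WT and 131, 135 and 99.8 CPM in Scl-/- libraries. Replicate 3 was the lowest and replicate 2 the highest of each genotype, with log2 differences of -0.37 (replicate 3 minus 1, adjusted p 0.0212) and 0.52 (replicate 2 minus 3, 0.00487). Its relative Bnip3 was -0.77 (0.0148) in replicate 3 against replicate 1, and Pfkfb4, which sets the level of the phosphofructokinase activator fructose 2,6-bisphosphate, was -0.49 (0.0457). The Pfkfb4 call was lost in 6 of 6 fits with a library left out (0.0832 to 0.179). Its F test call was lost with libraries rescaled by median ratios, with chromosome medians removed and with the median of 20 neighbouring genes removed. Calls also lost were those of Bnip3 and Bnip3l against replicate 1 without WT replicate 3, Scl-/- replicate 1 or Scl-/- replicate 3 (up to 0.109 and 0.130), that of Bnip3l in replicate 2 against 3 without WT replicate 2 or WT replicate 3 (up to 0.0994), and that of P4ha1 without WT replicate 2 or Scl-/- replicate 2 (up to 0.128).

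Summed by role, the upper enzymes stood at 1835, 1679 and 2154 CPM in WT and 1777, 1735 and 2018 CPM in Scl-/- libraries, and the 9 other hypoxia response genes at 298, 298 and 253 CPM and at 342, 289.8 and 269 CPM. By these sums, replicate 3 was highest for the enzymes and lowest for the hypoxia genes in both genotypes. The hypoxia sum leans on Bnip3l, the most abundant of the 9 (mean 115 CPM), and does not describe each gene. Only 3 of the 9 were lowest in replicate 3 of both genotypes (33.3%, against 27.3% of all genes). Of the 3 HIF subunits, limma's F test called 0 between replicate numbers, with 0 at an unadjusted p under 0.05, and by their mean over genotypes all 3 were lowest in replicate 3, though only 1 of them, Epas1, in both genotypes taken singly. The immediate early and heat shock genes, which mark handling of cells, summed to 1662, 1167 and 1149 CPM in WT and 801, 1108 and 1080 CPM in Scl-/- libraries (9 of 10 listed, Hspa8 the most abundant). Replicate 1 thus held both the highest and the lowest of the 6 sums. Whether cell composition, handling or growth conditions differed between the numbers in a way that moves these genes was not tested.

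Promoter windows were at hand for 34 of the 38 members, 49 windows in all. Slc2a3, Epas1, Bnip3l and Ndrg1 had none in the table. ACGTG occurred in 25 of the 49 windows (51.0%) and in 16.6% of the 32851 windows of all genes, and GCGTG in 28 (57.1%) and in 28.2%. At least 1 of the 2 cores was found for 32 of 34 members (94.1%), all but Gpi1 and Tpi1, and for 41.5% of 27025 genes. These shares are descriptions, and the members include genes known as HIF targets. The genes at large include genes not tested here. Base composition, level in these cells and the number of windows a gene were not matched. Windows with a core belonged to members that were higher, such as Slc16a3, to members that were lower, such as Egln1, and to members called in neither genotype fit nor the F test, such as Hk2.

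Other genes of these and neighbouring pathways were taken from lists chosen by name. Between genotypes and without the block limma called 0 genes in each of the 8 lists that follow. Other glycolysis genes (11 of 21 listed) had 2 genes at an unadjusted p under 0.05, and the block called Pdk4 as higher (log2 fold change 0.79, adjusted p 0.039) and Pfkfb2, on chromosome 1, as lower (-0.78, 0.000432). Other HIF pathway genes (17 of 20) had 2 at that level, and the block called 3, all lower: Hif3a (-0.32, 0.0487), Siah2 (-0.50, 0.0122) and Tceb1 (-0.25, 0.0338). These block calls are 18.2% and 17.6% of the lists, below the 24.2% of all genes. The F test between replicate numbers called 3 glycolysis genes, Pdk2 (adjusted p 0.028), Pfkfb2 (0.0303) and Eno3 (0.0326), and 6 HIF pathway genes, of which Siah1a (0.00145), Cited2 (0.00324), Egln2 (0.0144) and Crebbp (0.0184) had the smallest p. That is 27.3% and 35.3% of the lists, near the 32.5% of all genes. Their summed levels ranged over the libraries from 191 to 213 CPM for the glycolysis genes and from 4367 to 5223 CPM for the HIF pathway genes, the latter mostly Hsp90ab1.

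Other HIF target genes (27 of 37 listed) had 7 at an unadjusted p under 0.05, and the block called 6 as higher and 3 as lower, 33.3% of them against 24.2% of all genes. Vegfa, which encodes the ligand of FLK1, was at 52.5, 39.9 and 49.9 CPM in WT and 35.4, 18.3 and 17.6 CPM in Scl-/- libraries. Its groups did not overlap, with the Scl-/- libraries the lower and Scl-/- replicate 1 above the other Scl-/- libraries, as for Epas1. Scl-/- minus WT was -1.05 in log2, at an adjusted p of 0.102 without the block and 0.00276 with it. Kdm3a (-0.46, 0.00308 with the block) and Bhlhe40 (-1.10, 0.00579) were also lower, and of the 6 higher genes Plod2 (0.48, 0.00644) had the smallest p. The F test called 7 of this list (25.9%, against 32.5% of all genes), led by Tfrc (0.00985), Insig2 (0.0174), Plod1 (0.0229) and Jmjd6 (0.0318). Block calls among the members and in this list thus went in both directions between genotypes. Without the block, limma called 0 genes of this list. Among the members the block called 28.9%, near the 24.2% of all genes. With the median of neighbouring genes removed, Pfkl, Aldoc and P4ha2 of the higher members lost their block call. Slc16a1 and Slc16a3 kept theirs, as did all lower members called except Egln1. Aldoc, P4ha2 and Slc16a3 lie on chromosome 11, where genes at large were higher in Scl-/- cells.

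The pathways that take up glycolytic products were tested in the same way. Of pyruvate oxidation and the citric acid cycle (25 of 27 listed), limma called 0 genes without the block, with 1 at an unadjusted p under 0.05, and with the block Ogdh (on chromosome 11; 0.32, 0.0298) and Suclg1 (0.23, 0.035) as higher and Sdhc (on chromosome 1; -0.37, 0.00593) as lower, 12.0% against 24.2% of all genes. The F test called 9 (36.0%, against 32.5%), led by Idh3g (0.00781), Fh1 (0.00801), Mdh2 (0.0115) and Mpc2 (0.0254), and by mean CPM 17 of 25 (68.0%) were highest in replicate 3, against 37.8% of all genes, and 16 lowest in replicate 1. In the pentose phosphate pathway (8 of 8 listed) limma called 0 genes between genotypes with or without the block, with 0 and 2 at an unadjusted p under 0.05. The F test called 4 (50.0%): Taldo1 (0.0153), Pgd (0.0189), Pgls (0.0308) and G6pdx (0.0314). Here 7 of 8 (87.5%) had their highest mean in replicate 3, 5 had their lowest in replicate 2 and 3 were lowest in replicate 2 of both genotypes, with sums of 1175, 1140.1 and 1442 CPM in WT and 1153, 1183 and 1363 CPM in Scl-/- libraries. The sum was highest in replicate 3 of both genotypes, and lowest in replicate 2 of WT and replicate 1 of Scl-/- cells.

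The remaining lists hold regulators and stress genes. In the MYC and MAX network (11 of 12 listed; 1 at an unadjusted p under 0.05 without the block) the block called Mycn (0.70, 0.00184), Mlx (on chromosome 11; 0.38, 0.0129) and Mycl (0.42, 0.022) as higher and Myc (-0.32, 0.0181) as lower (36.4%, against 24.2% of all genes). The F test called 7 (63.6%, against 32.5%), led by Myc (0.00145), Mycl (0.00575), Mycn (0.0115) and Mxd1 (0.0118). Myc was at 219, 112 and 232 CPM in WT and 192, 93.1 and 163 CPM in Scl-/- libraries. It was lowest in replicate 2 of both genotypes. Of the amino acid and ER stress genes (14 of 15; 3 at an unadjusted p under 0.05), the block called Vldlr (0.54, 0.00712), Psat1 (0.39, 0.0107) and Sesn2 (0.28, 0.0351) as higher (21.4%), and the F test called Shmt2 (0.00605), Phgdh (0.0137), Atf4 (0.0203) and Vldlr (0.0219; 28.6% of the list), both shares below those of all genes. Of the immediate early and heat shock genes, 9 of 9 were lower in Scl-/- cells, with 1 at an unadjusted p under 0.05, and the block called Ier2 (-0.31, 0.0111) and Jun (-1.18, 0.023), 22.2% against 24.2% of all genes, and the F test Ier2 (0.00804), Hspa1b (0.0149) and Hspa8 (0.0251), 33.3% against 32.5%.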

How the data were processed

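The values analysed are the CPM table deposited by the authors for 6 RNA-seq libraries, scaled with the TMM method of edgeR. According to the submitters' processing notes, reads were aligned to mm9 with TopHat2 2.0.8b and filtered with SAMtools 0.1.19. CPM plus a pseudocount of 0.5 was taken to log2, and genes at or above 0.5 CPM in 3 or more libraries were tested with limma 3.58.1 (lmFit, eBayes with a trend of variance on level, two-sided, R 4.3.3); called means a Benjamini-Hochberg adjusted p under 0.05 over all 13991 genes tested. Reads on listed genes were counted back from the step between CPM values. Genotype was fitted alone and, as an alternative, with the replicate number as a block. The numbers come from the labels, which describe 3 independent differentiations, and were checked as pairs. Deviations from the genotype mean correlated across genes at 0.587, 0.756 and 0.748 for libraries of the same number and at -0.62 to -0.10 for others (genes are not independent replicates). Such deviations cancel within a genotype, so the negative values follow in part from the positive ones and add no separate evidence. The replicate numbers were tested by an F test and 3 contrasts with genotype in the fit. Values in every library are given for members called between genotypes with or without the block, for the 8 with the smallest F test p, for the 6 with the highest CPM per kb, and for Hif1a, Gapdh, Slc2a1, Ldha and Pdk1; from each pathway list, up to 4 genes called in each comparison (smallest p) are named. The members and lists were chosen with earlier results of these data known. Alternatives were other pseudocounts, filters, scaling, no variance trend, removal of chromosome medians, no genotype term, each library left out and, chosen after the data had been seen, removal of the median of 20 neighbouring genes (10 tested genes on each side) and the same settings in the fit with the block. Gene positions are those of mm9; promoter windows are from RefSeq on GRCm38.p6. In a self-test on made input with known changes, both genotype fits called most of them. Once differences between replicate numbers were added, the fit without the block missed them and the fit with the block still called most. The added differences were set larger than the median SD over replicate numbers seen over all genes tested (0.17). The self-test therefore does not show how many changes the fit without the block misses in these data.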

Additional observations from a re-analysis of the deposited data

How the results depend on the processing

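The 3 members called between genotypes kept their direction in every alternative, and Slc2a3 and Slc16a3 kept their call in each alternative that used all 6 libraries. With the replicate block 11 members and 3385 genes were called, and with the block and each chromosome's median removed 9 and 2641; among the members, the block changed no other call between genotypes than those of the 8 it added. Without a variance trend, the blocked fit called 7 members and 2466 genes, and the calls of Slc2a1, Gpi1, Pfkl and Egln1 were lost. In that setting the F test called 7 members and 2190 genes. The contrasts called 0 members (replicate 2 against 1, limma, 12 at an unadjusted p under 0.05), 4 (3 against 1) and 7 (2 against 3). Replicate 2 against 1 gave 2 members with chromosome medians removed and 4 with the median of 20 neighbouring genes removed (10 on each side). Without a genotype term, which leaves the genotype difference in the residual, limma's F test called 0 members (10 at an unadjusted p under 0.05) and 38 genes, and the contrasts called 0 (5, 10 and 6 at that level for 2 against 1, 3 against 1 and 2 against 3). Removing that median reversed Pfkp to 0.00 (0.0023) and Pgam1 to -0.0248. Except for the missing genotype term, the cause of these changes was not tested.

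Leaving out each library in turn, which tests fewer libraries, gave these ranges. Between genotypes, 0 (without WT replicate 1; limma, 5 at an unadjusted p under 0.05) to 3 members and 34 (without WT replicate 1) to 384 genes were called; with the replicate block, where leaving out either library of a number leaves the same 2 pairs, 6 to 11 members and 1207 (without WT replicate 2) to 3655 genes; in the F test 2 to 25 members and 631 (without WT replicate 2) to 6508 genes. Replicate 2 against 1 had 0 (without WT replicate 2 or Scl-/- replicate 2; 7 and 6 at an unadjusted p under 0.05) to 9 members, 3 against 1 had 0 (without WT replicate 3 or Scl-/- replicate 3; 17 and 16) to 16, and 2 against 3 had 0 (without WT replicate 2; 9) to 20. Log2 fold changes of uncalled members that changed sign ranged from -0.0015 to 0.12 for Hk2, from -0.16 to 0.00599 for Pfkp, from -0.0928 to 0.10 for Aldoa, from -0.15 to 0.14 for Tpi1, from -0.0263 to 0.0775 for Pfkfb3, from -0.21 to 0.18 for Gapdh, from -0.0061 to 0.11 for Pgam1, from -0.0737 to 0.17 for Pkm, from -0.35 to 0.0306 for Pdk1, from -0.51 to 0.0144 for Ddit4 and from -0.0212 to 0.13 for Higd1a.

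The median log2 fold change of the members ranged from -0.03 to 0.06. It moved by less than the SD of that median over the 3 pairs (0.068). The members' median SD over replicate numbers ranged from 0.20 to 0.23. It moved by less than the SD between genotypes of the median SD within a genotype (0.022), a limit taken from only 2 values. With 3 libraries a genotype, 1 line a genotype and 2 libraries a replicate number, small differences cannot be told from 0, and at the lowest members, such as Ankrd37 and Epas1, counting error adds to the spread.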
